A study of Mus musculus with 9 samples.

Results

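Ebi3, Zbtb2, Fam160b2 and Bmp1 are 4 protein-coding genes of the 54838 genes counted in laser-captured mouse brain cells. They were chosen by their levels in these same libraries: scaled to the total count, each was higher in every mCherry library than in every overlap and cfos library. The series title places the study in the paraventricular hypothalamus, a nucleus of neuroendocrine and autonomic neurons, and names visceral and somatic pain. The labels give the tissue as brain and the cell type as neuron for 3 groups of 3 libraries each, named mCherry (a red fluorescent protein), overlap and cfos (named for Fos, an immediate early gene switched on by neuronal activity). In the design text the groups are labelled with CRD, VFF or both, and the sources do not tie either term to mCherry or to cfos. No strain, genotype, age, agent or promoter behind the mCherry label is given, nor how many animals or cells went into a library, so the spread between libraries may be technical.

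The 4 genes belong to unrelated families. Ebi3 encodes a secreted cytokine subunit that pairs with the product of Il27 to form interleukin 27, or with that of Il12a to form interleukin 35, and is best known from B cells and antigen-presenting cells. Zbtb2 encodes a nuclear transcription factor with a BTB domain and zinc fingers, reported in human cells to repress genes of the p53 pathway. Fam160b2 encodes a member of the FHIP family, whose relatives in human cells join Hook adaptor proteins to the dynein motor. Bmp1 encodes a secreted zinc protease of the tolloid family, which trims procollagens and cleaves chordin, an antagonist of bone morphogenetic proteins.

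The promoters of Ebi3 and Zbtb2 are shown, the members at or near 0 outside mCherry and the only ones with an entry in the promoter table. Each holds 250 bases before and 50 after the annotated start, from RefSeq on the GRCm38.p6 build, in which 2 of the 4 members matched. Capitals mark the GC box, the motif GGGCGG on either strand. The Ebi3 promoter lies at chr17:55952373-55952672 on the plus strand and the Zbtb2 promoter at chr10:4388059-4388358 on the minus strand, both written from 5′ to 3′.
Ebi3: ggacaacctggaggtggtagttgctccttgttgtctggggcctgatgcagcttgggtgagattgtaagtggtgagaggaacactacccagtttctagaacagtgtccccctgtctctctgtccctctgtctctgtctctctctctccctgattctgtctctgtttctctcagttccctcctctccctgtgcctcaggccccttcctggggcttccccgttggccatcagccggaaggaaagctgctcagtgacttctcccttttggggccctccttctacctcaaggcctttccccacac
Zbtb2: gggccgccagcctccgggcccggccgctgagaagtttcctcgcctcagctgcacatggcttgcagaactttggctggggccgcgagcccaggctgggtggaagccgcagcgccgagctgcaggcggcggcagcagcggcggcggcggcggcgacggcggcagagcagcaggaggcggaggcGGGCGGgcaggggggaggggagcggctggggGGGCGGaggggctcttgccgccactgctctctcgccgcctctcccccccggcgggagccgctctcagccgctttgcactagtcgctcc
These promoters had little in common in base composition. That of Ebi3 had a GC content of 56.3% and 2 CpG dinucleotides, and that of Zbtb2 had 76.3% and 33, against medians of 52.7% and 7 over 32851 promoters of the same length. The GC box occurred at 2 places in the Zbtb2 promoter and was not found in that of Ebi3, while 35.7% of all promoters held it. The AP-1 motif TGANTCA, the CRE motif TGACGTCA and the E-box CACGTG, each searched on both strands, were found in neither window. They occurred in 7.81%, 1.79% and 7.15% of all promoters. Absence of these letters says nothing about binding of the factors.

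Library totals were 877257 to 978877 counts in mCherry, 504785 to 597898 in overlap and 700556 to 3414593 in cfos. The columns were not all independent. In none of the 54838 genes did cfos 2 exceed cfos 3, and the pair differed by less than the sampling noise, with a chi-square of 0.824 per gene where the other 35 pairs had 9.08 to 58.6. Their mean was therefore used as 1 sample, which leaves n = 2 in cfos. Likewise, in none of the 54838 genes did mCherry 2 exceed mCherry 1 and mCherry 3 added together. Its chi-square against either was above sampling noise, but this cannot tell whether mCherry 2 is a mixture of mCherry 1 and mCherry 3. No chi-square against their sum was computed. It stayed in, so n = 3 in mCherry may overstate the independent libraries, and ratios are also given without it. Fos RNA stood at 30.1, 20.9 and 11.1 CPM in mCherry, at 68.5, 199 and 272 CPM in overlap and at 271, 22.6 and 24.8 CPM in cfos, so the library labelled cfos 1 and the other cfos libraries differed in the gene that names the group. CPM, counts scaled to a common library total, were computed here after TMM normalization, which evens out differences in composition between libraries.

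The pattern by which the members were picked was not rare. It was met by 842 of the 54838 genes, or 1.54%, by 660 of the 16410 genes that passed the filter on low counts, or 4.02%, and by 3.58% of the protein-coding genes among these. The reverse pattern, every mCherry library below all others, was met by 5.33% of the tested genes, every overlap library above all others by 4.42% and every cfos library above all others by 4.86%. Of the 842 genes, 501 were protein-coding, 108 were processed pseudogenes and 75 were long intergenic RNAs. All 4 members passed the filter, Ebi3 and Zbtb2 through mCherry, where they were high. With mCherry 2 left out, 4.36% of the tested genes met the rule. The 4 members were bound to be among them, since leaving out a library cannot undo the rule.

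The members lay at different depths inside the rule. Ranked by the gap between the lowest mCherry library and the highest other library, Ebi3 was 1st, Zbtb2 was 11th, Bmp1 was 124th and Fam160b2 was 131st of the 842 genes. On CPM of the unscaled total, the lowest mCherry value of Bmp1 was 2.56 times the highest value elsewhere (597 against 233), and that of Fam160b2 was 2.45 times (106 against 43.3). At the edge of the rule, Cep57l1 was just inside with a lowest mCherry value of 262 against 261 elsewhere, and Cenpq was just outside at a ratio of 0.9999, with 85.2 on each side.

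**Figure D1:**
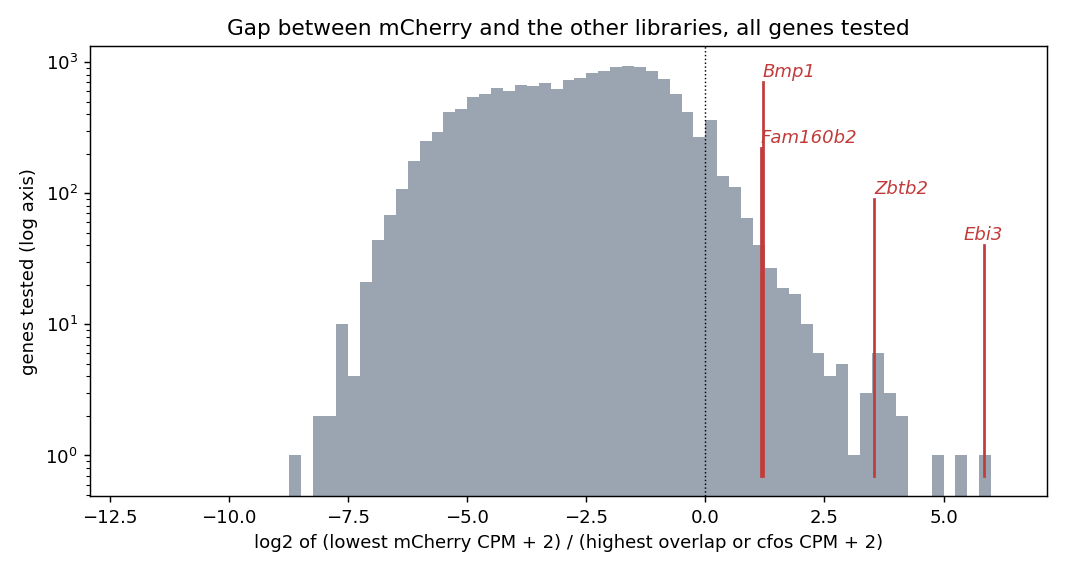
Gap between mCherry and the other libraries for the 16410 genes tested. The x axis is the log2 ratio of the lowest mCherry CPM to the highest overlap or cfos CPM, each plus 2, and the y axis is the number of genes on a log scale. The red lines mark the 4 members, with Ebi3 at 5.84, Zbtb2 at 3.55, Bmp1 at 1.21 and Fam160b2 at 1.16.

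Ebi3, the cytokine subunit gene (ENSMUSG00000003206, chromosome 17, 55952640 to 55957022, plus strand, mm10), was counted in mCherry alone. It had 157, 157 and 112 counts in mCherry 1, 2 and 3, or 163, 182 and 113 CPM, and 0 counts in all overlap and cfos libraries. A count of 0 allows a true level of up to 3 counts, a limit of 5.14 to 6.08 CPM per library in overlap and of 0.953 to 3.98 CPM in cfos. The mCherry mean was 152 ± 35.7 CPM (SD, n = 3). With the group total of the other side set at 3 counts, Ebi3 was at least 83.2-fold higher in mCherry than in overlap and at least 160-fold higher than in cfos, and at least 75.7-fold and 146-fold higher without mCherry 2. A total of 59 tested genes, or 0.36%, had counts in every mCherry library and 0 in all overlap and cfos libraries. The antisense RNA gene Gm16712 overlaps the 3′ end of Ebi3 on the other strand. It had 0 counts in mCherry and overlap, and 0, 2 and 2 counts in cfos 1, 2 and 3. Since these cells were captured and counted in bulk, fewer cells with a transcript and less of it per cell cannot be told apart.

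Zbtb2, the transcription factor gene (ENSMUSG00000075327, chromosome 10, 4367075 to 4388108, minus strand), was close to the same on-off pattern. It had 143, 114 and 73 counts in mCherry 1, 2 and 3, or 148, 132 and 73.5 CPM. In overlap 1, 2 and 3 it had 0, 1 and 0 counts, and in cfos 1, 2 and 3 it had 0, 6 and 14 counts, or 0, 3.48 and 4.45 CPM. Every mCherry library was above all others, and these libraries differed among themselves by up to 1.99 times, while the overlap and cfos ranges overlapped. The mean was 118 ± 39.3 CPM in mCherry (SD, n = 3), 0.578 ± 1.0 in overlap (SD, n = 3) and 2.05 ± 2.9 in cfos (SD, n = 2). The ratio of CPM from summed counts was 193 for mCherry over overlap, with a 95% counting interval (exact Clopper-Pearson) of 34.5 to 7660, and 37.3 for mCherry over cfos, with an interval of 20 to 78.5. Without mCherry 2 the ratios were 182 and 35.2. Intervals and floors cover counting error only, on counts summed over the libraries of a group. The rule chose the members by their mCherry differences, so the members' intervals and floors for mCherry are no test of these.

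Fam160b2, the FHIP family gene (ENSMUSG00000022095, chromosome 14, 70583296 to 70599835, minus strand), was detected in all libraries and varied most within mCherry. It stood at 382, 108 and 123 CPM in mCherry 1, 2 and 3, at 20.6, 20.8 and 12.2 CPM in overlap and at 39.8, 44.6 and 47.0 CPM in cfos. The highest mCherry library was 3.61 times the lowest on unscaled totals, and the mean was 204 ± 154 CPM in mCherry (SD, n = 3), 17.8 ± 4.92 in overlap (SD, n = 3) and 42.9 ± 4.36 in cfos (SD, n = 2). The log2 fold change was 3.47 (SE 0.75) for mCherry over overlap and 2.21 (SE 0.82) for mCherry over cfos. Leaving out mCherry 1 gave 2.64 and 1.37. In the same library, mCherry 1, the summed markers of ependyma and choroid plexus stood at 400 CPM, against 35.9 and 64.4 CPM in mCherry 2 and 3, and the markers of microglia and macrophages at 332 CPM, against 120 and 170 CPM. Each of these sums rested mainly on 1 gene in mCherry 1, Ccdc153 with 350 CPM in the first and Mrc1 with 179 CPM in the second, while Tmem212, Folr1 and Kl of the first list and Tmem119 of the second were at 0 in all mCherry libraries. In cfos 1 the ependymal and choroid sum of 537 CPM came from Ttr, with Ccdc153 at 0, and Fam160b2 stood at 39.8 CPM. The part of these markers' cell types in the Fam160b2 level of mCherry 1 was not tested.

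Bmp1, the tolloid protease gene (ENSMUSG00000022098, chromosome 14, 70474558 to 70520234, minus strand), had the highest counts of the members and the smallest spread, relative to its mean, within mCherry. It stood at 721, 636 and 588 CPM in mCherry 1, 2 and 3, at 170, 196 and 152 CPM in overlap and at 162, 253 and 237 CPM in cfos. The highest mCherry library was 1.21 times the lowest on unscaled totals, and every mCherry library was above all others. The mean was 648 ± 67.2 CPM in mCherry (SD, n = 3), 173 ± 22.1 in overlap (SD, n = 3) and 202 ± 57.4 in cfos (SD, n = 2). The log2 fold change was 1.87 (SE 0.32) for mCherry over overlap and 1.64 (SE 0.37) for mCherry over cfos. Without cfos 2 and cfos 3 the value over cfos was 2.29.

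**Figure D2:**
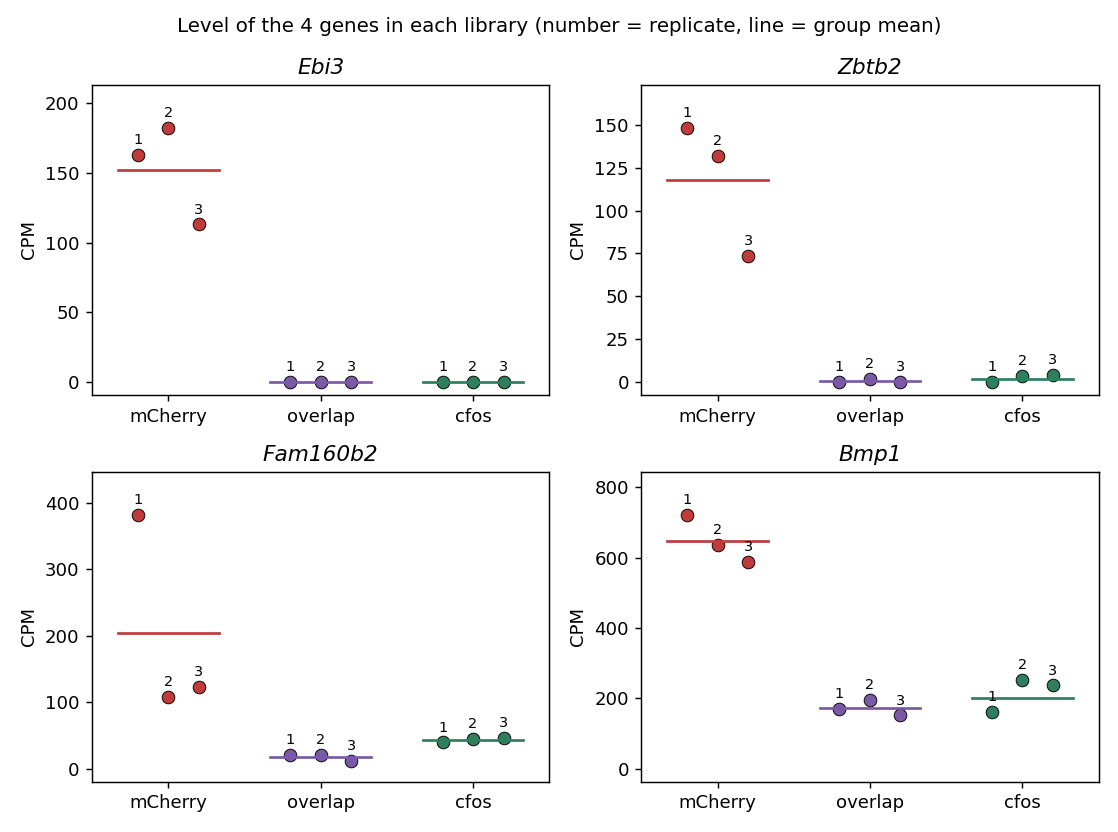
CPM of Ebi3, Zbtb2, Fam160b2 and Bmp1 in each of the 9 libraries, with 1 panel per gene and the groups in the order mCherry, overlap and cfos. Each point is a library with its replicate number, and the line is the group mean, in which cfos 2 and cfos 3 count as 1 replicate. Ebi3 and Zbtb2 lie at or near 0 outside mCherry, Bmp1 has a level of 152 to 253 CPM there, and mCherry 1 stands apart for Fam160b2.

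The rule compared mCherry with the other groups, so the mCherry contrasts of the members carry no test. The comparison left to test was overlap against cfos, though the rule held both groups below the lowest mCherry library. None of the members with counts there passed edgeR's quasi-likelihood test with Benjamini-Hochberg adjustment over the 16410 genes. Fam160b2 was lower in overlap than in cfos in every library, with a log2 fold change of -1.26 (SE 0.77, 95% interval -2.97 to 0.46, adjusted p = 0.551). Bmp1 had -0.23 (SE 0.35, interval -1.01 to 0.55, adjusted p = 0.861), and its value turned to 0.24 without cfos 2 and cfos 3. For Zbtb2, with 1 count in overlap, the ratio of overlap to cfos was 0.193 (95% counting interval 0.00444 to 1.36, adjusted p = 0.709). Its fitted log2 fold change was -1.76 and turned to 2.15 without cfos 2 and cfos 3. Zbtb2 passed the filter through mCherry, where it was high, so with so few counts here its test decides nothing. Ebi3 was at 0 in both groups and gave no fold. In this comparison 0 of 16410 genes passed, or 0%, with 1942 at an unadjusted p under 0.05, while DESeq2 called 893 genes and limma-voom called 0. The intervals for Fam160b2 and Zbtb2 were wide and included differences of several fold.

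The members' profiles resembled each other to different degrees. Over the 8 replicates, the Pearson correlation of log2 CPM plus 2 was 0.998 between Zbtb2 and Bmp1, 0.979 between Ebi3 and Zbtb2, 0.976 between Ebi3 and Bmp1, and 0.879 to 0.923 between Fam160b2 and the other members. The members were picked for a shared difference between mCherry and the other groups, and the mCherry columns are not independent, so these values are a description. Among protein-coding genes that are no members, the nearest to Ebi3 were Olfr282, an olfactory receptor gene (r = 0.998), Vil1, which encodes the actin-bundling protein villin (0.987), and Rnase6, a ribonuclease gene (0.986). The nearest to Zbtb2 were Olfr282 (0.977), Bmt2 (0.968) and Tm9sf2 (0.968), and the nearest to Bmp1 were Bmt2 (0.978), Olfr282 (0.971) and Tm9sf2 (0.969). The nearest to Fam160b2 were Tm9sf2 (0.957), Rbck1 (0.951) and Glrx3 (0.948). All of these met the members' rule. The order depended on the value added to the CPM: with 0.5 Bmt2 came first for Zbtb2, and with 5 Rbck1 came first for Fam160b2 and Tm9sf2 came 4th.

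The largest gaps among other protein-coding genes were those of Rnase6, Olfr282, Vil1, Nup107 and Mapk7. Rnase6 and Olfr282 shared the Ebi3 pattern, with 25, 34 and 54 counts and 27, 35 and 23 counts in mCherry 1, 2 and 3 and 0 counts elsewhere. Nup107, which encodes a subunit of the nuclear pore, stood at 111, 139 and 149 CPM in mCherry, at 0 in all overlap libraries and at 10.6, 0.58 and 0.318 CPM in cfos 1, 2 and 3. Mapk7, the gene of the kinase ERK5, stood at 202, 207 and 214 CPM in mCherry, at 22.3, 1.73 and 0 CPM in overlap and at 26.5, 4.06 and 3.18 CPM in cfos. For Mapk7 the mCherry libraries lay closer together than those of any member on this scale, and for Nup107 and Mapk7 cfos 1 was the highest of the cfos libraries, whereas Zbtb2 was at 0 there.

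By position, which the rule did not use, Bmp1 and Fam160b2 are neighbours. They lie on the same strand of chromosome 14 with 63.1 kb between them, and Ebi3 and Zbtb2 are on other chromosomes. The interval between Bmp1 and Fam160b2 holds 5 protein-coding genes, of which Nudt18 was tested and 0 met the rule. Sftpc, the surfactant protein gene next to Bmp1, was at 0 in all libraries. Nudt18, a nucleotide hydrolase gene that ends 607 bases from Fam160b2, stood at 7.26, 2.32 and 3.02 CPM in mCherry, at 17.1, 12.1 and 2.03 CPM in overlap and at 13.3, 4.06 and 7.31 CPM in cfos. Dmtn, which encodes an actin-binding protein of the red cell skeleton and lies 1427 bases from Fam160b2 on its other side, had log2 fold changes of 0.43 (SE 0.66) for mCherry over overlap and -0.35 (SE 0.72) for mCherry over cfos.

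A further gene of that region, Xpo7, met the rule. Xpo7, which encodes a nuclear transport receptor, stood at 235, 360 and 370 CPM in mCherry, at 83.9, 163 and 79.1 CPM in overlap and at 165, 161 and 165 CPM in cfos. Its log2 fold changes were 1.53 (SE 0.44) for mCherry over overlap and 0.94 (SE 0.49) for mCherry over cfos. Its highest library was mCherry 3, whereas Bmp1 and Fam160b2 were highest in mCherry 1. Within 250 kb of Bmp1, 1 of 8 tested protein-coding genes other than the members met the rule, and the same gene was the 1 of 7 around Fam160b2. Around Ebi3 it was 0 of 13 and around Zbtb2 0 of 5, while 3.58% of all tested protein-coding genes met the rule. Yju2, a splicing factor gene that starts 2076 bases past the end of Ebi3, stood at 78.8, 46.3 and 3.02 CPM in mCherry, at 156, 62.4 and 28.4 CPM in overlap and at 54.4, 38.8 and 46.7 CPM in cfos. Rmnd1, a gene of mitochondrial translation near Zbtb2, stood at 230 CPM in mCherry 1 and at 39.4 and 45.3 CPM in mCherry 2 and 3, within the range of 32.5 to 125 CPM in overlap. The median log2 fold change of the tested neighbours was -1.05 for mCherry over overlap around Ebi3, 0.37 around Zbtb2, 0.43 around Fam160b2 and 0.14 around Bmp1. For mCherry over cfos it was -0.92 around Ebi3, 0.29 around Zbtb2, -0.45 around Fam160b2 and -0.74 around Bmp1, so around the members of chromosome 14 the sign differed between the comparisons.

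**Figure D3:**
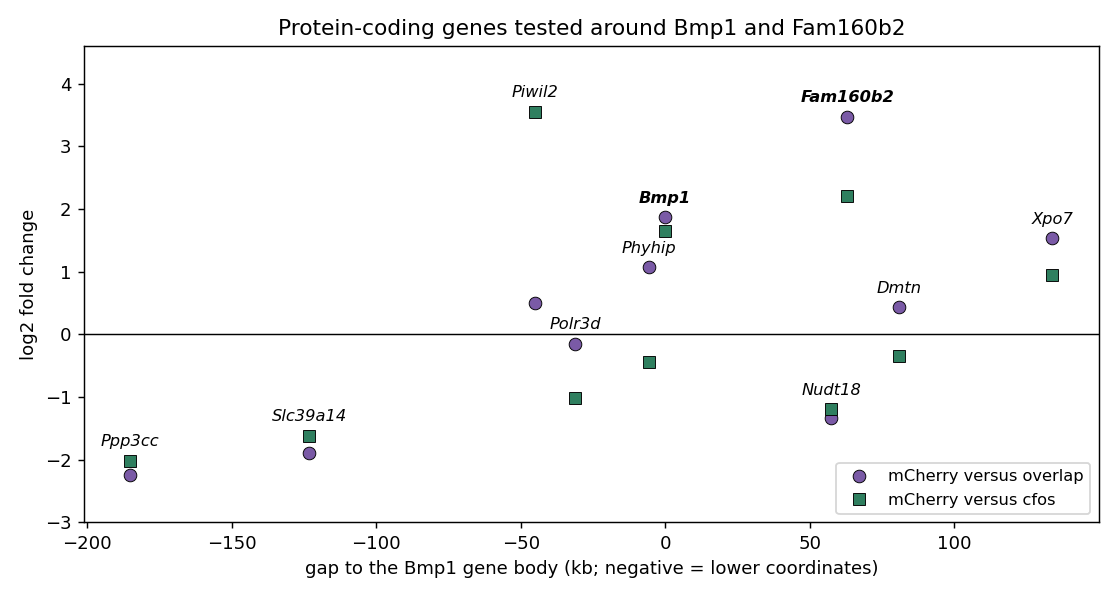
Protein-coding genes tested around Bmp1 and Fam160b2. The x axis is the gap from the Bmp1 gene body in kb and the y axis the log2 fold change, with circles for mCherry versus overlap and squares for mCherry versus cfos. Bmp1, Fam160b2 and Xpo7 are above 0 in both comparisons, and so is Piwil2, which had 0 counts in mCherry 1.

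In annotation the members differed as well. Ebi3 spans 4.38 kb with 5 exons in its 1 transcript, Zbtb2 21 kb with 3 exons in its longest coding transcript, Fam160b2 16.5 kb with 17 exons and Bmp1 45.7 kb with 20 exons. The last exon, where 3′ libraries collect most reads, is 401 bases long in Ebi3, 2777 in Zbtb2, 1888 in Fam160b2 and 692 in Bmp1. Bmp1 has 7 annotated transcripts, which counts per gene do not separate.

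The genes named here that work with Ebi3 did not meet the members' rule, which 1.54% of all genes met. Il27, the partner of Ebi3 in interleukin 27, had 0 counts in all 9 libraries. Il12a, its partner in interleukin 35, stood at 31.1, 18.5 and 1.01 CPM in mCherry, at 3.43, 3.47 and 0 CPM in overlap and at 2.65, 0 and 0 CPM in cfos, so that mCherry 3 was within the overlap range. Il27ra, a receptor chain for interleukin 27, stood at 124, 153 and 143 CPM in mCherry, at 29.1, 114 and 136 CPM in overlap and at 41.1, 47.0 and 49.3 CPM in cfos. The mCherry and overlap groups overlapped in Il27ra, and its log2 fold change for mCherry over cfos was 1.60 (SE 0.77, adjusted p = 0.309 by edgeR). Il6st, the shared signalling receptor gp130, stood at 33.2, 17.4 and 3.02 CPM in mCherry and at 15.4, 17.3 and 75 CPM in overlap. Il12rb2, a receptor chain shared by interleukins 12 and 35, was at 0 in all cfos libraries and at least 51.4-fold higher in overlap than in cfos (adjusted p = 0.354).

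Of the 22 interleukin 12 family genes listed, 13 were tested and 0 passed in any of the 3 comparisons. Their median log2 fold change was -0.96 for mCherry over overlap, with 2 of 13 above 0, against -0.09 over all genes tested. For mCherry over cfos it was -0.15, against -0.04 over all genes. Over all 16410 genes, edgeR called 0 genes in mCherry over overlap and 0 in mCherry over cfos, or 0%, with 2457 and 2899 at an unadjusted p under 0.05. DESeq2 called 905 and 1530 genes in these comparisons and limma-voom 1318 and 2138. For overlap over cfos the list's median was 0.60, against 0.12. Il6, a cytokine gene, was not counted in mCherry and was at least 17.1-fold lower in mCherry than in overlap (adjusted p = 0.281), though overlap 2 had 0 counts as well. Il23a, a further cytokine subunit gene, had -2.55 (SE 1.20, adjusted p = 0.351) on the log2 scale for mCherry over overlap.

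Genes related to Bmp1 by family or as substrates were listed and tested gene by gene, with no test of the list. Some of the closest partners of Bmp1 had few counts. Tll1, a further tolloid protease gene, had 0 counts in mCherry and cfos and stood at 5.14, 27.8 and 10.1 CPM in overlap. Tll2 was counted in overlap 3 alone, and Chrd, the gene of the substrate chordin, in overlap 2 alone with 3 counts. Bmp4, a ligand that chordin binds, stood at 18.7, 81.1 and 112 CPM in mCherry, at 223, 24.3 and 172 CPM in overlap and at 183, 35.9 and 29.6 CPM in cfos. Of the 28 listed genes, 20 were tested and 0 passed in any comparison. Of the 20, 1, the collagen gene Col5a2, met the members' rule, against 4.02% of all genes tested. The median log2 fold change was -0.17 for mCherry over overlap, -0.49 for mCherry over cfos and 0.37 for overlap over cfos.

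Among these genes Bgn, which encodes the proteoglycan biglycan, stood at 98.5, 102 and 82.5 CPM in mCherry and at 0, 5.22 and 4.77 CPM in cfos, a log2 difference of 4.97 (SE 1.33, adjusted p = 0.222). Its overlap values of 25.7, 79.8 and 91.3 CPM reached into the mCherry range. Apoa1, a lipoprotein gene whose precursor BMP1 cleaves, differed by -4.27 on the log2 scale (SE 1.42, adjusted p = 0.249) for mCherry over cfos. Sfrp2, a secreted enhancer of procollagen processing, was not counted in mCherry and was at least 70.2-fold lower in mCherry than in cfos (adjusted p = 0.232). Its cfos values of 5.31, 93.9 and 97.2 CPM differed between cfos 1 and the other cfos libraries, and its fitted log2 fold change was -8.62, against -4.84 without cfos 2 and cfos 3. Col7a1 had 1 count in mCherry and 24 in overlap, an overlap to mCherry ratio of 41.0 with a 95% counting interval of 6.68 to 1684 (adjusted p = 0.275).

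Relatives of Zbtb2 were tested in 27 cases of 46 listed, and 0 passed in any comparison. Their median log2 fold change was -0.06 for mCherry over overlap and -0.07 for mCherry over cfos, close to the values over all genes, and 0.40 for overlap over cfos. Of the 27, 2, Zbtb34 and Zbtb40, met the members' rule, against 4.02% of all genes tested. Zbtb40 stood at 303, 249 and 214 CPM in mCherry, at 158, 33 and 97.4 CPM in overlap and at 31.9, 31.9 and 32.7 CPM in cfos, a log2 difference of 2.95 (SE 0.74, adjusted p = 0.211) for mCherry over cfos. Zbtb25 was not counted in mCherry and was at least 20.5-fold lower in mCherry than in overlap (adjusted p = 0.29), though overlap 3 and cfos 1 had 0 counts as well. Zbtb6 differed by -4.28 on the log2 scale (SE 1.49, adjusted p = 0.275) for mCherry over overlap. Zbtb8a was at 0 in all cfos libraries and at least 65.2-fold higher in mCherry than in cfos (adjusted p = 0.263), though mCherry 1 and overlap 1 were at 0 as well.

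In the p53 pathway, Trp53, the p53 gene itself, stood at 7.26, 0 and 1.01 CPM in mCherry, at 39.4, 65.9 and 64.9 CPM in overlap and at 83.6, 63.2 and 57.5 CPM in cfos. Its mCherry libraries were below all others. The log2 fold change was -4.65 (SE 1.35, adjusted p = 0.231 by edgeR) for mCherry over cfos, and Trp53 did not pass. Under 2 of 17 alternatives it passed, with adjusted p = 0.0047 by DESeq2 and 0.00125 by limma-voom. Those methods called 1530 and 2138 of 16410 genes in this comparison. Under the other alternatives, all fitted by edgeR, Trp53 did not pass, with adjusted p up to 0.529. Cdkn1a, the gene of the cell-cycle inhibitor p21, had 2 counts in mCherry and 19 in overlap, of which 16 were in overlap 2. Sp1, which encodes a factor that binds GC boxes, differed by -2.50 on the log2 scale (SE 1.15, adjusted p = 0.338) for mCherry over overlap. Cdkn2a, which encodes cell-cycle inhibitors, was at 0 in all cfos libraries and at least 25.6-fold higher in mCherry than in cfos (adjusted p = 0.274), though mCherry 1 had 0 counts as well. Of the 10 listed genes 8 were tested and 0 passed in any comparison. Of the 8, 1, the cyclin gene Ccng1, met the members' rule, against 4.02% of all genes tested. Ccng1 had log2 fold changes of 1.5 for mCherry over overlap and 2.08 for mCherry over cfos. The medians were -0.21 for mCherry over overlap, -0.86 for mCherry over cfos and -0.17 for overlap over cfos.

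The listed relatives Fam160b1, Fam160a2 and Fam160a1 did not meet the members' rule, which few genes met. Fam160b1, the closest listed relative by name, stood at 8.29, 10.4 and 11.1 CPM in mCherry, at 10.3, 8.67 and 4.06 CPM in overlap and at 41.1, 12.8 and 14.3 CPM in cfos. Fam160a2 stood at 14.5, 9.27 and 9.06 CPM in mCherry, at 8.56, 6.94 and 6.08 CPM in overlap and at 25.2, 60.3 and 56.9 CPM in cfos, so that mCherry lay between the other groups, and differed by -2.51 on the log2 scale (SE 1.13, adjusted p = 0.422) for overlap over cfos. Fam160a1 was counted in overlap 3 alone. Hook3, an adaptor gene, stood at 221, 393 and 350 CPM in mCherry, at 178, 541 and 258 CPM in overlap and at 248, 212 and 222 CPM in cfos, with overlapping groups. Among dynein and dynactin genes, Dynlt3 had 2.67 (SE 1.20, adjusted p = 0.335) and Dctn6 had -2.74 (SE 1.16, adjusted p = 0.313) as log2 fold changes for mCherry over overlap, and Dync1i2 had -0.91 (SE 0.41, adjusted p = 0.422) for overlap over cfos. Of 37 listed symbols of FHIP, Hook and dynein genes, 34 were among the genes counted and 30 were tested. Of these 0 passed and 0 met the members' rule, which 4.02% of all genes tested met. Their median log2 fold change was 0.01 for mCherry over overlap, -0.64 for mCherry over cfos and -0.89 for overlap over cfos, against 0.12 over all genes in the last comparison.

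**Figure D4:**
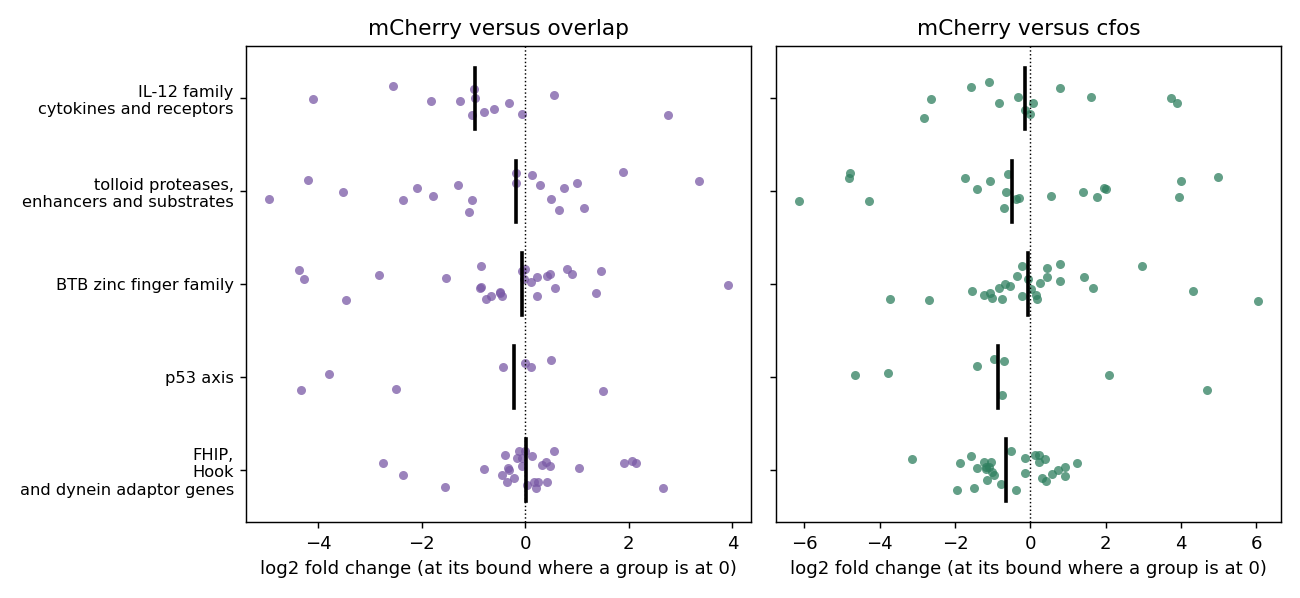
Log2 fold changes of the tested genes in 5 lists related to the members, for mCherry versus overlap on the left and mCherry versus cfos on the right. Each point is a gene, set to its bound where a group had 0 counts, and the black bar is the median of the list. The medians lie between -0.96 and 0.01, and genes of the lists spread to both sides of 0.

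Summed markers of lymphocytes and antigen-presenting cells, and of fibroblasts and meninges, lay within or below the range of the other groups in mCherry. The 11 markers of lymphocytes and antigen-presenting cells summed to 60.2 to 73.5 CPM in mCherry, 163 to 353 CPM in overlap and 47.8 to 253 CPM in cfos, and 5 of them had 0 counts in all mCherry libraries, among these Cd79a and Jchain, which were counted in other groups, and Cd8a and Itgax, which were at 0 in all 9 libraries. Most of the mCherry sum was Ms4a1, a B cell marker, with 49.8, 48.7 and 57.4 CPM in mCherry 1, 2 and 3, against 156, 59.0 and 203 CPM in overlap and 1.33, 39.4 and 38.5 CPM in cfos. Cd74, a gene of antigen presentation, was counted in all mCherry libraries, at 2.32 to 10.4 CPM. Mrc1, a macrophage marker, stood at 179, 54.4 and 72.4 CPM in mCherry, at 32.5, 90.2 and 2.03 CPM in overlap and at 18.6, 0 and 0 CPM in cfos. Mrc1 was among 8 markers of microglia and macrophages, which summed to 120 to 332 CPM in mCherry, 152 to 279 CPM in overlap and 87 to 110 CPM in cfos. The other tested genes of that list, Cx3cr1, Csf1r and C1qa, had log2 fold changes of -1.04, -0.9 and -0.52 for mCherry over overlap. Mrc1 had 1.26. For mCherry over cfos, Cx3cr1, Csf1r and C1qa had 0.22, -2.27 and 0.97, and Mrc1 had 3.48. The part of these cell types in the Ebi3 counts was not tested. The 8 markers of fibroblasts and meninges, cells rich in procollagen, summed to 123 to 151 CPM in mCherry, 128 to 247 CPM in overlap and 195 to 280 CPM in cfos. The 8 neuronal markers, among them Snap25 and Rbfox3, were all detected in each group and summed to 1193 to 1285 CPM in mCherry, 639 to 1029 CPM in overlap and 1533 to 2591 CPM in cfos. The 8 markers of neurons of the paraventricular hypothalamus were detected in each group and summed to 308 to 528 CPM in mCherry, 260 to 1398 CPM in overlap and 664 to 779 CPM in cfos. In mCherry 1, 2 and 3 the sums came mainly from Oxt, at 108, 299 and 391 CPM, and Slc17a6, at 164, 77.6 and 84.5 CPM. Otp stood at 0, 1.16 and 1.01 CPM there, and others of the list reached 0 in some mCherry libraries. Oligodendrocyte markers summed to 1243 to 2327 CPM in mCherry, 387 to 1663 CPM in overlap and 4326 to 6402 CPM in cfos, so RNA of myelinating glia was present in all groups. Of the markers in all 11 lists, only the astrocyte gap junction gene Gja1 met the members' rule, which 1.54% of all genes met.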

How the data were processed

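The values are deposited raw read counts, 1 table with 9 library columns matched by name. Per the labels' protocols, laser-captured cells were lysed and made into Smart-3SEQ libraries, which read 3′ ends. The submitters' processing notes name mm10 as the build, and featureCounts, UMI-tools, STAR and Trim Galore as tools. Not given in the sources used here are versions, annotation, strand setting and the use of molecular identifiers, so reads of opposite-strand genes cannot be told apart and counts may hold PCR copies. Of the identifiers, 54723 matched GENCODE M21, the source of coordinates.

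Tests used R 4.3.3 with edgeR 4.0.16: filterByExpr by group (16410 genes), TMM, 1 robust quasi-likelihood fit over all groups with no covariate, Benjamini-Hochberg adjustment at 0.05, and 95% intervals from the fit's t distribution. It was tested on simulated data. DESeq2 1.42.0, limma 3.58.1, other scalings and filters, omissions and a replicate block were alternatives. Members and lists were chosen with earlier results of these data known. Other genes named were the 3 protein-coding genes most correlated with each member, the 5 with the largest gap, the 4 of smallest p per list, and genes beside a member. Partner genes of the members, Xpo7, Piwil2, Rmnd1 and other list genes were named after their values were seen. Another marker gene is not reported here.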

Additional observations from a re-analysis of the deposited data

How the results depend on the processing

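The number of members meeting the rule was 4 with TMM-scaled CPM. Leaving out a library cannot undo the rule for a gene that meets it, so such omissions are no check of the members. The number of genes called moved with the method. DESeq2 called 905 genes in mCherry versus overlap, 1530 in mCherry versus cfos and 893 in overlap versus cfos. Limma-voom called 1318 and 2138 genes in the mCherry comparisons. Without a filter edgeR called 484, 1197 and 214 genes, with a stricter filter 2 in mCherry versus cfos, and with all 9 columns 247 in mCherry versus cfos and 15 in overlap versus cfos. The cause was not tested. Other scalings, cfos 3 alone and each omission of a library called 0, where a lone cfos replicate is assumed to vary like the other groups. With libraries left out in turn, the overlap versus cfos log2 fold change lay between -4.34 and 2.15 for Zbtb2 and between -0.52 and 0.24 for Bmp1, the positive values coming without cfos 2 and cfos 3. Over all alternatives the adjusted p was 0.487 to 0.866 for Zbtb2, 0.59 to 0.955 for Bmp1 and 0.336 to 0.741 for Fam160b2. Of the 20 list genes named by p, 9 passed under at least 1 alternative (DESeq2, limma-voom, no filter or all 9 columns), and 0 reversed. Those that passed were Trp53, Zbtb40, Zbtb8a, Zbtb25, Bgn, Sfrp2, Apoa1, Col7a1 and Il12rb2. The 20 were picked for small p in these same data, so their calls and kept signs are no independent check. The DESeq2 and limma-voom calls above were out of 16410 genes tested. The share of all tested genes that passed under at least 1 alternative was not computed. Same-numbered libraries did not deviate together (correlations -0.0568 to 0.0487). These values cannot show whether such libraries came from the same animal, which the labels do not say. The replicate block with all 9 columns called 0 genes in each comparison. Without the block the calls were 0, 247 and 15 in mCherry versus overlap, mCherry versus cfos and overlap versus cfos. Counts of 0 in the shallow overlap libraries limit Ebi3 and Zbtb2 to lower bounds or wide intervals there.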
